A study of Homo sapiens with 12 samples.

Results

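Transcripts of 10 genes of the circadian clock were followed in HUDEP-2 cells, a human erythroid precursor line made from umbilical cord blood, after a short exposure to stem cell factor (SCF), the ligand of the Kit receptor. The 10 genes are PER1, PER2, PER3, CRY1, CRY2, NR1D1, NR1D2, BHLHE40, DBP and TEF. They were taken by symbol from a count table of 54628 genes. The rule names symbols only, but these were chosen with earlier results of these data known. All 10 were in the table and all 10 passed the filter on low counts, which kept 15492 genes.

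The circadian clock is a transcriptional feedback loop that most body cells contain. CLOCK and ARNTL (also called BMAL1) bind as a pair to E-box sequences and switch on the PER and CRY genes, whose proteins return to the nucleus and repress that pair. A second loop runs through NR1D1 and NR1D2 (REV-ERB alpha and beta), which repress ARNTL, and output factors such as DBP and TEF carry the rhythm to other genes. PER1, PER2 and BHLHE40 are also known as genes that hormones and growth factors can switch on within minutes to hours, which is how signals can reset the clock of cultured cells.

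The 12 libraries formed 4 groups of 3. Cells carried KRAB-dCas9, delivered by lentivirus under an EF1a promoter and sorted by GFP, together with either a control guide (sgControl) or a guide that directs this repressor to a regulatory element at the EGR1 locus (sgEGR1). Growth medium held dexamethasone, a synthetic glucocorticoid, with erythropoietin, SCF and doxycycline. All 4 groups were then starved for 5 h in a medium for which the labels name only antibiotics and albumin, and received PBS or 50 ng/mL SCF for 1 h. Every library was therefore taken at a single time after treatment, and the data hold no time course of the circadian cycle.

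The libraries held 23.5 to 32.04 megacounts, and levels are given in CPM, that is counts per megacount of a library after scaling by TMM factors. EGR1 itself checks the guides: its level in sgControl cells was 10.9, 5.98 and 7.44 CPM after PBS and 207, 239 and 171 CPM after SCF in replicates 1, 2 and 3. In sgEGR1 cells it was 2.04, 1.12 and 0.976 CPM after PBS and 40.4, 57.3 and 203 CPM after SCF. The library labelled sgEGR1 SCF replicate 3 thus had EGR1 at the level of sgControl SCF libraries, against its label, and the calls it enters were also made without it, with the value given where a call was lost. Replicate 1 of every group also stood apart, since on the first principal component (17.6% of the variance) replicate 1 lay at -35.3 to -21.7 and the other replicates at 6.85 to 23.7. All 12 erythroid markers examined passed the filter, and their summed level was 21267 to 24563 CPM. HBG1, a fetal globin gene among them, was at 0 to 166 CPM. Of 14 markers of other cell types, 12 were below 1 CPM in every library, and the exceptions were ITGA2B (12 to 35.1 CPM) and EPCAM (138 to 171 CPM). The summed level of those 14 markers was 159 to 197 CPM in sgControl PBS, 157 to 198 CPM in sgControl SCF, 150 to 176 CPM in sgEGR1 PBS and 153 to 205 CPM in sgEGR1 SCF, and its part in the results was not tested. The study's methods call the replicates biological, while the labels give only their numbers, so p-values measure the spread between these libraries.

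The promoters of the 10 genes were searched for the E-box CACGTG and the related CACGTT, because these are the letters through which the clock is known to drive its own repressors. Windows ran from 250 bases before to 50 bases after the RefSeq start (GRCh38.p14), and both strands were read. Of the 10 genes, 8 held at least 1 of these E-boxes, against 12.2% of 35116 promoter windows of the same length, and PER3 and DBP held neither. CACGTG occurred in 4 of the 10 genes (7.26% of all windows) and CACGTT in 4 (5.34% of all windows). The 30 bases around each match are given here on the strand of the gene, with the E-box letters in capitals, where AACGTG is CACGTT read on the other strand.
PER1, chr17:8152560-8152589, minus strand: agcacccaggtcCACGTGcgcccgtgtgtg
PER2, chr2:238288790-238288819, minus strand: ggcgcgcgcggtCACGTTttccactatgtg
CRY1, chr12:107093621-107093650, minus strand: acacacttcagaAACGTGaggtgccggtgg
CRY2, chr11:45847275-45847304, plus strand: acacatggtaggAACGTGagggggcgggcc
NR1D1, chr17:40100740-40100769, minus strand: gcgcaagagctcAACGTGccggctgttgga
NR1D2, chr3:23945954-23945983, plus strand: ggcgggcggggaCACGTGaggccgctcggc
NR1D2, chr3:23946004-23946033, plus strand: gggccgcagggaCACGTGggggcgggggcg
BHLHE40, chr3:4979187-4979216, plus strand: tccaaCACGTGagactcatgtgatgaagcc
TEF, chr22:41381737-41381766, plus strand: cacctggccccgCACGTGtctatcttatcc

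Relative to the RefSeq start of each gene, these E-boxes began at position -173 in PER1, -197 in PER2, -89 in CRY1, -188 in CRY2, -168 in NR1D1, -155 and -105 in NR1D2, -245 in BHLHE40 and -193 in TEF. In GENCODE v44, whose transcripts can start further upstream, the stretches of PER2 and CRY2 overlapped an exon of their own gene, those of PER1, NR1D2 and TEF lay in an intron of it, and those of CRY1, NR1D1 and BHLHE40 lay outside it. Other motifs were rarer among the 10 genes. The D-box TTANNTAA, through which DBP and TEF bind, was found in PER2 and NR1D2 (5.63% of all windows), and the nuclear receptor site AGGTCA in PER1 and CRY2 (13.8% of all windows). The cyclic AMP response element TGACGTCA (1.85% of all windows), the AP-1 site TGANTCA (7.71%) and the EGR site GCGTGGG (6.98%) were found in none of the 10 windows. A match is a description of the letters in these windows and not evidence that a factor binds there.

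Levels of different genes can be set side by side only per length, so CPM were divided by the merged exon length of each gene (CPM per kb). Merged length counts each base that is exon in any annotated transcript. It can exceed the length of the RNA expressed and so place a gene too low. For DBP it was 6485 bases in 2 merged exons, which cover most of the gene, and which transcripts were expressed was not tested. The cryptochromes and PER3 led the order and BHLHE40 came last. Over the 12 libraries CRY1 averaged 5.72 ± 0.368 CPM per kb (SD, n = 12), CRY2 4.08 ± 0.472, PER3 3.47 ± 0.223 and PER1 2.79 ± 0.667. TEF followed at 1.5 ± 0.281, NR1D2 at 0.994 ± 0.15, PER2 at 0.876 ± 0.383 and DBP at 0.766 ± 0.114. The lowest were NR1D1 at 0.414 ± 0.144 and BHLHE40 at 0.396 ± 0.270 CPM per kb. At their extremes the ranges of neighbours in this order overlapped over the 12 libraries. Library by library, CRY1 was above CRY2, PER1 above TEF and DBP above NR1D1 in 12 of 12, TEF above NR1D2 in 11, PER3 above PER1 in 10 and CRY2 above PER3 in 9. NR1D1 was above BHLHE40 in 8 of the 12 libraries, while NR1D2 above PER2 and PER2 above DBP held in 6 each, so the place of PER2 beside these 2 genes differed between libraries. Counts per library ran from 471 to 993 for CRY2, and from 13 to 108 for BHLHE40 and 15 to 55 for NR1D1, so that counting error weighed most on the last 2.

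**Figure D1:**
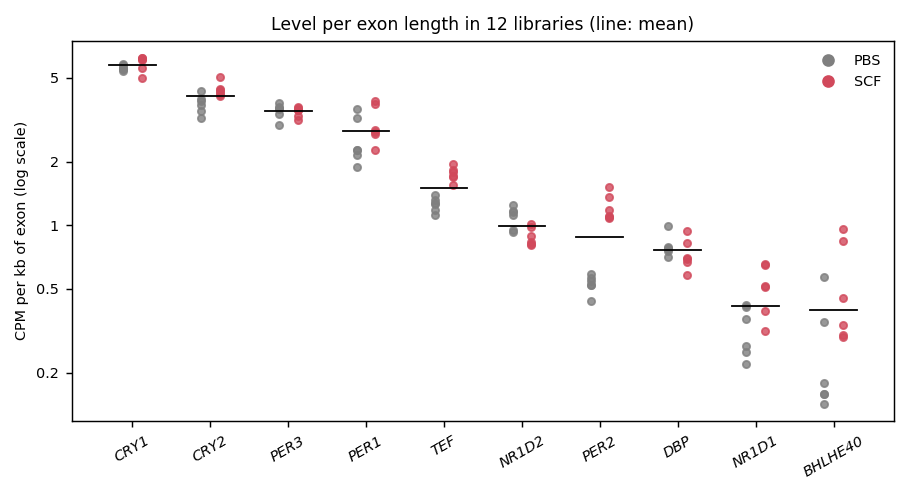
Level of each clock gene in CPM per kb of merged exon length (log scale), with 1 point per library, PBS in grey and SCF in red, and a line at the mean of all 12 libraries. CRY1 is highest (mean 5.72) and BHLHE40 lowest (mean 0.396). Of the 10 genes PER2 and TEF show no overlap between PBS and SCF libraries, as did 6.9% of all genes.

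The main question of the design was what SCF changed within 1 h. Averaged over both guides, PER2 and TEF were the only 2 of the 10 genes that passed the test, and both rose, against 9.03% of all genes tested in either direction (edgeR quasi-likelihood test, Benjamini-Hochberg adjusted p under 0.05). Within sgControl cells 1 of 10 passed, PER2, against 2.89% of all genes. Within sgEGR1 cells PER2 and TEF passed, against 2.59%. The median log2 fold change of the 10 genes was 0.23 averaged over both guides, beside -0.0045 for all genes tested. Since the 10 genes were chosen with earlier results of these data known, these shares and medians are a description.

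PER2 (chr2:238244044-238290102, minus strand, in GENCODE v44 on GRCh38, as all gene positions here) encodes a period protein, a repressor of CLOCK and ARNTL. Its averaged log2 fold change was the highest of the 10. In sgControl cells it was at 3.68, 3.70 and 3.88 CPM after PBS (replicates 1, 2 and 3) and at 10.7, 8.39 and 7.85 CPM after SCF. In sgEGR1 cells it was at 3.11, 4.17 and 3.98 CPM after PBS and at 7.66, 7.73 and 9.64 CPM after SCF. All 6 SCF libraries lay above all 6 PBS libraries, where 6.9% of all genes did not overlap in either direction. The SCF library was 1.85 to 2.91 times its same-numbered PBS library in all 6 pairs. The labels do not state that same-numbered libraries are paired. Such ratios, here and below, are therefore a description, and the share of all genes with like ratios is not given. The log2 fold change was 1.26 (SE 0.157, edgeR adjusted p = 0.00111) in sgControl cells, 1.15 (SE 0.157, edgeR adjusted p = 0.00205) in sgEGR1 cells and 1.20 (SE 0.111, edgeR adjusted p = 3.9e-05) averaged over both, a 2.31-fold rise. Without sgEGR1 SCF replicate 3, the log2 fold change in sgEGR1 cells was 1.04 (edgeR adjusted p = 0.0106). PER2 passed the test under all 19 alternative settings in each of these 3 comparisons. Of its exon bases, 2.65% are shared with a long noncoding RNA gene on the opposite strand. The study's methods call the libraries strand-specific, but whether strand was used in counting is not stated.

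PER1 (chr17:8140472-8156506, minus strand) is the other period gene known for acute induction. In sgControl cells it was at 22.5, 13.3 and 15 CPM after PBS and at 26.3, 19.3 and 15.8 CPM after SCF. In sgEGR1 cells it was at 24.9, 15.9 and 15.9 CPM after PBS and at 27.0, 19.8 and 19.0 CPM after SCF. Replicate 1 was the highest library of every group, so PBS and SCF libraries overlapped. The averaged log2 fold change was 0.24 (SE 0.175, edgeR adjusted p = 0.471). Each SCF library was above its same-numbered PBS library, by 1.06 to 1.45 times. With a term for replicate 1 in the model the log2 fold change was 0.25, its SE shrank to 0.0553 and the edgeR adjusted p was 0.00641. PER3 (chr1:7784291-7845177, plus strand), the third period gene, was at 24.3 to 30.6 CPM in all 12 libraries, and its averaged log2 fold change was -0.01 (SE 0.0554, edgeR adjusted p = 0.933). Of PER3's exon bases, 10.7% are shared with UTS2 on the opposite strand.

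The cryptochromes are the partners of the period proteins in repression. CRY1 (chr12:106991364-107093549, minus strand) was at 26.3, 26.2 and 26.6 CPM after PBS and 26.6, 23.9 and 29.6 CPM after SCF in sgControl cells. In sgEGR1 cells CRY1 was at 27.5, 25.8 and 27.8 CPM after PBS and 29.1, 29.1 and 29.5 CPM after SCF, and its averaged log2 fold change was 0.07 (SE 0.0507, edgeR adjusted p = 0.510). The SCF and PBS libraries of CRY1 were apart in sgEGR1 cells (as for 21.2% of all genes) and overlapped in sgControl cells. CRY2 (chr11:45847118-45883248, plus strand) was at 21.6, 24.1 and 26.7 CPM after PBS and 26.0, 26.5 and 31.2 CPM after SCF in sgControl cells. CRY2 in sgEGR1 cells was at 20.0, 24.5 and 23.0 CPM after PBS and 25.3, 27.0 and 27.4 CPM after SCF. Its SCF libraries were above the same-numbered PBS libraries in 6 of 6 pairs, by 1.10 to 1.26 times. The averaged log2 fold change of CRY2 was 0.22 (SE 0.0702, edgeR adjusted p = 0.0726), and with a replicate 1 term the edgeR adjusted p was 0.00565. DESeq2 called CRY2 in the averaged comparison without such a term.

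The REV-ERB genes gave values in opposite directions. NR1D2 (chr3:23945286-23980617, plus strand) was at 6.79, 5.51 and 5.39 CPM after PBS and 4.66, 5.16 and 4.84 CPM after SCF in sgControl cells. In sgEGR1 cells NR1D2 was at 7.23, 6.70 and 6.49 CPM after PBS and 5.69, 5.89 and 4.74 CPM after SCF. Within each guide the SCF libraries were all below the PBS libraries. Ranges without overlap, in either direction, held for 19.6% of all genes in sgControl cells and 21.2% in sgEGR1 cells. The ratio of same-numbered NR1D2 libraries was 0.686 to 0.937. The averaged log2 fold change of NR1D2 was -0.30 (SE 0.0910, edgeR adjusted p = 0.0638), and the edgeR adjusted p was 0.0269 with a replicate 1 term. With that term but without sgEGR1 SCF replicate 3 it was 0.0614. NR1D1 (chr17:40092793-40100589, minus strand) was at 1.08, 0.945 and 0.581 CPM after PBS and 1.72, 1.03 and 1.35 CPM after SCF in sgControl cells, and at 1.11, 0.707 and 0.663 CPM after PBS and 0.828, 1.70 and 1.34 CPM after SCF in sgEGR1 cells. SCF was higher in 5 of 6 same-numbered pairs, and replicate 1 of the sgEGR1 cells was the exception. The averaged log2 fold change of NR1D1 was 0.65 (SE 0.242, edgeR adjusted p = 0.125), and from replicates 2 and 3 alone it was 0.89 (edgeR adjusted p = 0.0381). Of 19 alternative settings that was the 1 under which NR1D1 passed, and it includes sgEGR1 SCF replicate 3. NR1D1 shares 18% of its exon bases with THRA on the opposite strand, so its low counts are also uncertain in origin.

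BHLHE40 (DEC1, chr3:4979437-4985323, plus strand), a repressor that competes for E-boxes and an early response gene in many cells, was at 1.23, 0.630 and 0.504 CPM after PBS and 3.38, 1.60 and 1.07 CPM after SCF in sgControl cells. In sgEGR1 cells it was at 2.00, 0.559 and 0.558 CPM after PBS and 2.97, 1.04 and 1.19 CPM after SCF. As for PER1, replicate 1 was the highest library of every group, and every SCF library was above its same-numbered PBS library, by 1.48 to 2.75 times. The averaged log2 fold change was 1.05 (SE 0.435, edgeR adjusted p = 0.171), close in size to that of PER2 but with a larger SE. With a replicate 1 term it was 1.06 (SE 0.164, edgeR adjusted p = 0.000594). Without a term for replicates, 1 of the 12 fits that each left out 1 library passed, the one without sgEGR1 PBS replicate 1 (1.48, edgeR adjusted p = 0.0474), and the others ran down to 0.74 with an edgeR adjusted p up to 0.356. BHLHE40 shares 12.8% of its exon bases with BHLHE40-AS1 on the opposite strand.

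DBP and TEF are outputs of the loop, PAR bZIP factors that bind D-boxes. TEF (chr22:41367333-41399326, plus strand) was at 5.96, 6.22 and 5.23 CPM after PBS and 8.0, 7.33 and 8.36 CPM after SCF in sgControl cells. In sgEGR1 cells TEF was at 5.53, 6.55 and 6.0 CPM after PBS and 7.97, 9.15 and 8.61 CPM after SCF. All 6 SCF libraries of TEF were above all 6 PBS libraries, where 6.9% of all genes did not overlap in either direction. The averaged log2 fold change was 0.48 (SE 0.0788, edgeR adjusted p = 0.00275), a 1.39-fold rise that passed under all 19 alternatives. Within sgControl cells it was 0.44 (SE 0.112, edgeR adjusted p = 0.0567) and within sgEGR1 cells 0.51 (SE 0.111, edgeR adjusted p = 0.0327). The call within sgEGR1 cells was lost when any of the sgEGR1 PBS libraries (edgeR adjusted p = 0.0884, 0.0609 and 0.116 without replicates 1, 2 and 3), SCF replicate 2 (0.127) or SCF replicate 3 (0.101) was left out. DBP (chr19:48630030-48637379, minus strand) was at 5.09, 5.08 and 5.00 CPM after PBS and 4.47, 5.33 and 3.77 CPM after SCF in sgControl cells, and at 4.60, 6.44 and 4.88 CPM after PBS and 4.52, 6.10 and 4.34 CPM after SCF in sgEGR1 cells. The DBP groups overlapped, and its averaged log2 fold change was -0.13 (SE 0.127, edgeR adjusted p = 0.629). DBP shares 10.2% of its exon bases with SPHK2 on the opposite strand.

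**Figure D2:**
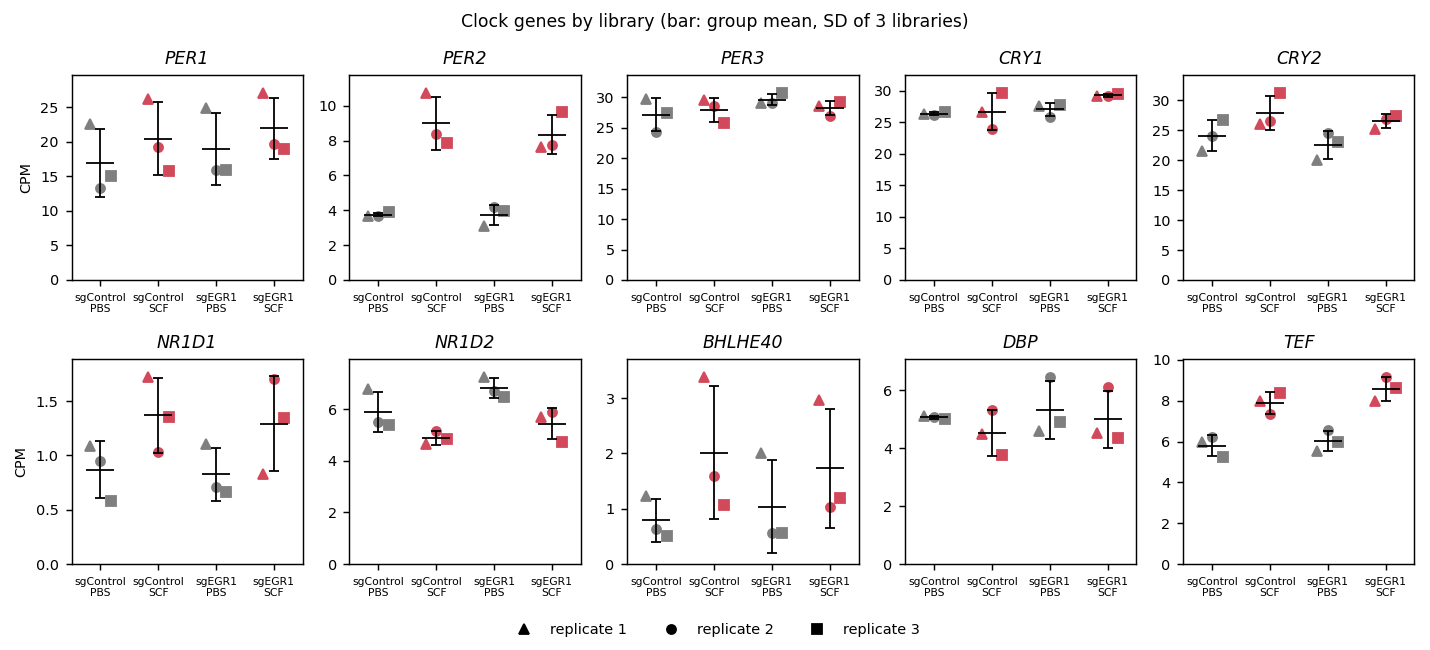
Level of the 10 clock genes in CPM in each library, 1 panel per gene with its own axis from 0, triangles for replicate 1, circles for replicate 2, squares for replicate 3, grey for PBS and red for SCF, with the group mean and SD of 3 libraries in black. PER2 and TEF separate by treatment in both guides, while the triangles of PER1 and BHLHE40 lie above the other symbols in all 4 groups.

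Counted without a model, the ranges of PBS and SCF libraries did not overlap for PER2, TEF and NR1D2 in sgControl cells (19.6% of all genes) and for PER2, TEF, NR1D2, CRY1 and CRY2 in sgEGR1 cells (21.2% of all genes). With all 6 libraries of each treatment, PER2 and TEF remained apart (6.9% of all genes). An exact two-sided permutation test that exchanged treatments within each guide gave p = 0.005 for PER2, TEF and NR1D2, the smallest of its 400 arrangements. Ranges that do not overlap within either guide, in the same direction, fix the permutation p at this value. For these genes it thus adds nothing to the overlap count, and the share of all genes at this value is not given. The same exact permutation test gave p = 0.015 for CRY2, 0.03 for NR1D1, 0.06 for BHLHE40, 0.225 for PER1 and for CRY1, 0.265 for DBP and 0.855 for PER3, all 10 unadjusted. Within a single guide this exact permutation test cannot go below 0.1.

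**Figure D3:**
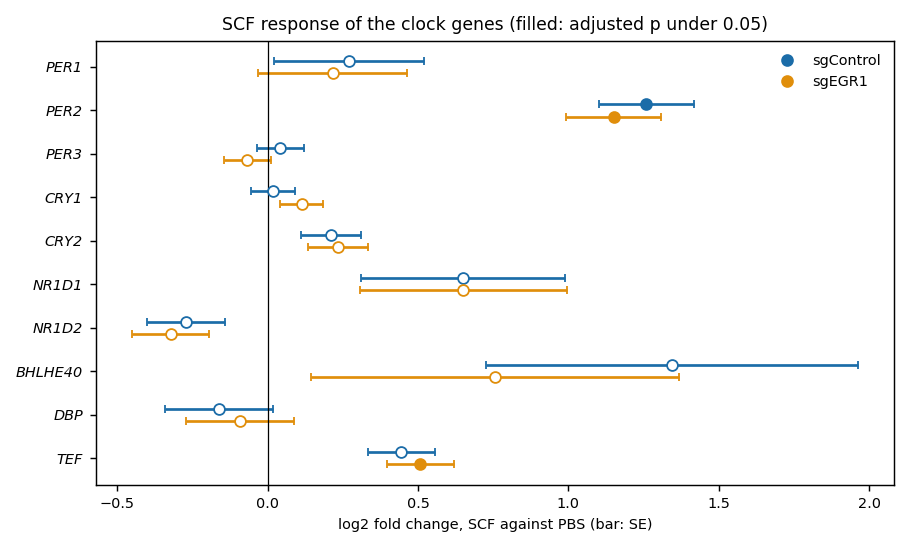
Fitted log2 fold change of SCF against PBS for each clock gene, sgControl cells in blue and sgEGR1 cells in orange, with bars for the SE and filled points where the edgeR adjusted p was under 0.05. PER2 is filled in both guides (1.26 and 1.15) and TEF in sgEGR1 cells, and the widest bars belong to BHLHE40.

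A term for replicate 1 raised the number of clock genes that passed the SCF test, and it raised the number over all genes as well. The term was chosen with replicate 1 already known to stand apart in these libraries. In sgControl cells 4 of 10 passed with the term, namely PER2, TEF, PER1 and BHLHE40, against 8.32% of all genes, and PER1 was lost without sgEGR1 SCF replicate 3 (edgeR adjusted p = 0.0572). In sgEGR1 cells PER2, TEF, BHLHE40 and CRY2 passed, against 8.56%. Without sgEGR1 SCF replicate 3, 2 of these 4 passed with the term in sgEGR1 cells, PER2 and TEF, while BHLHE40 (0.76, edgeR adjusted p = 0.124) and CRY2 (0.25, edgeR adjusted p = 0.112) did not. Averaged over both guides 6 of 10 passed, with PER2, TEF, BHLHE40, PER1 and CRY2 higher and NR1D2 lower after SCF, against 18.5%. NR1D1, CRY1, PER3 and DBP did not pass with the term. Without sgEGR1 SCF replicate 3, 5 of 10 passed in the averaged comparison with the term, and NR1D2 was the gene lost.

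Replicate 1 was then compared with replicates 2 and 3 directly. It was known from earlier results of these data to stand apart, so the p-values of this comparison only describe these libraries. Of the 10 genes, 3 passed, with PER1 and BHLHE40 higher and CRY2 lower in replicate 1, against 26.6% of all genes. PER1 in replicate 1 was 1.40 to 1.59 times the mean of replicates 2 and 3 in the 4 groups, a log2 difference of 0.59 (SE 0.0572, edgeR adjusted p = 9.1e-06). Its 4 replicate 1 libraries (22.5 to 27.0 CPM) all lay above its 8 other libraries (13.3 to 19.8 CPM), which among the 10 genes held for PER1 only and for 11.8% of all genes. BHLHE40 in replicate 1 was 2.17 to 3.58 times the mean of the others, a log2 difference of 1.42 (SE 0.162, edgeR adjusted p = 3.7e-05). For both genes the point estimate was larger than that of the averaged SCF response. CRY2 in replicate 1 was 0.843 to 0.931 times the mean of the others, below both in all 4 groups, a log2 difference of -0.18 (SE 0.0519, edgeR adjusted p = 0.0206). The CRY2 call was lost without replicate 1 of sgControl PBS (edgeR adjusted p = 0.0847), of sgControl SCF (0.0551) or of sgEGR1 PBS (0.0800). PER2 and TEF, which responded to SCF, gave log2 differences of -0.02 (SE 0.114, edgeR adjusted p = 0.920) and -0.06 (SE 0.0803, edgeR adjusted p = 0.631) between replicates. What set replicate 1 apart is not stated in the labels and was not tested.

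**Figure D4:**
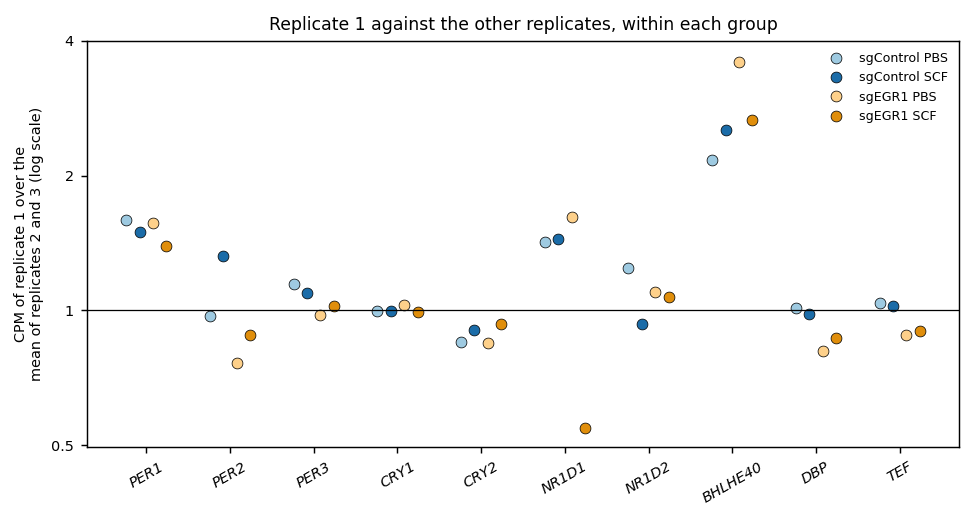
CPM of replicate 1 divided by the mean CPM of replicates 2 and 3 (log scale) for each clock gene, with 1 point for each of the 4 groups and a line at 1. PER1 (1.40 to 1.59) and BHLHE40 (2.17 to 3.58) lie above the line in all 4 groups and CRY2 (0.843 to 0.931) below it, while the points of PER2 and NR1D1 fall on both sides.

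The guide comparison asks whether the cells with the EGR1 guide differed in these genes. None of the 10 genes passed between sgEGR1 and sgControl cells after PBS or after SCF, and none had groups that did not overlap, against 9.3% of all genes after PBS and 7.14% after SCF. None of the 10 reached an unadjusted p under 0.05 in either comparison with edgeR, and DESeq2 called none of them. Over all genes edgeR called 0 (0.0%) in each comparison, with 715 genes after PBS and 361 after SCF at an unadjusted p under 0.05, while DESeq2 called 20 and 5. EGR1, the targeted gene, was thus not called by edgeR either. Its log2 difference was -2.59 (SE 0.801, edgeR unadjusted p = 0.00721, edgeR adjusted p = 0.999) after PBS. After SCF it was -1.03 (SE 0.450, edgeR unadjusted p = 0.0406, edgeR adjusted p = 0.9998). The value after SCF includes sgEGR1 SCF replicate 3, whose EGR1 level went against its label. The absence of a call between guides therefore does not show equal levels. The log2 differences of the clock genes ran from -0.10 to 0.37 after PBS and from -0.22 to 0.15 after SCF, and the value largest in size was that of BHLHE40 in each. PER2 averaged 3.75 ± 0.107 CPM in sgControl PBS and 3.75 ± 0.566 CPM in sgEGR1 PBS (SD, n = 3). After SCF it averaged 8.99 ± 1.52 CPM in sgControl and 8.34 ± 1.13 CPM in sgEGR1 cells, a log2 difference of -0.11 (SE 0.15, edgeR adjusted p = 1). Without sgEGR1 SCF replicate 3 that difference was -0.23 (SE 0.161, edgeR adjusted p = 1).

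The SCF response itself was compared between the guides by an interaction term. None of the 10 genes passed in edgeR or DESeq2, none reached an unadjusted p under 0.05 in edgeR, and over all genes edgeR called 0 (0.0%), with 306 at an unadjusted p under 0.05, while DESeq2 called 4. The PER2 response (sgEGR1 minus sgControl) differed by -0.11 on the log2 scale (SE 0.221), and by -0.23 (SE 0.222) without sgEGR1 SCF replicate 3. For TEF the response difference was 0.06 (SE 0.157). The largest in size was that of BHLHE40, at -0.59 (SE 0.869). With SEs of this size, equal responses were not shown.

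Other genes of the clock were taken from fixed lists, which were also set with earlier results of these data known. Of 7 genes of the positive arm, 4 were tested, CLOCK, ARNTL, ARNTL2 and RORA, and in the edgeR model without a replicate 1 term none passed for SCF, against 9.03% of all genes in the averaged comparison. With the term CLOCK passed in the averaged comparison, with a higher level after SCF, against 18.5% of all genes. Averaged over both guides and without the term, the fitted log2 change was 0.15 for CLOCK (SE 0.0475, edgeR adjusted p = 0.0761) and for ARNTL -0.04 (SE 0.120, edgeR adjusted p = 0.893). NPAS2, a paralog of CLOCK, was listed at 0 in every library, and RORB had at most 5 counts. Of 7 other repressors and output factors 6 were tested, and NOCT, which encodes a phosphatase known for its rhythmic expression, was the 1 that passed in the averaged comparison, against the 9.03% of all genes. It went from 5.09 ± 0.966 to 7.93 ± 0.324 CPM (SD, n = 3) in sgControl cells and from 5.08 ± 0.385 to 7.96 ± 0.635 CPM in sgEGR1 cells, and the averaged log2 fold change was 0.64 (SE 0.0963, edgeR adjusted p = 0.00143), a rise that passed without sgEGR1 SCF replicate 3 as well (0.64, edgeR adjusted p = 0.00512). HLF, the third PAR bZIP gene beside DBP and TEF, gave 0.65 (SE 0.213, edgeR adjusted p = 0.0838) at 10 to 38 counts per library, and NFIL3, which competes with these factors for D-boxes, gave 0.44 (SE 0.145, edgeR adjusted p = 0.0852).

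CSNK1D and CSNK1E, the kinases that phosphorylate PER proteins, gave averaged log2 fold changes of -0.02 (SE 0.0330, edgeR adjusted p = 0.836) and 0.13 (SE 0.0572, edgeR adjusted p = 0.203).

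The last lists follow known routes of acute PER induction, the CREB pathway and the glucocorticoid receptor. Of 11 genes for CREB and its coactivators and kinases, 10 were tested, and 1 of them, SIK3, passed in the averaged comparison, against 9.03% of all genes, with a lower level after SCF (averaged log2 fold change -0.19, SE 0.0477, edgeR adjusted p = 0.0299). All 11 genes of the glucocorticoid list, which includes PER1, were tested, and 4 passed in the averaged comparison, against 9.03% of all genes. DDIT4 rose in the averaged comparison (log2 fold change 0.39, SE 0.0756, edgeR adjusted p = 0.00678), and TXNIP, PDK4 and NR3C1, the gene of the receptor itself, fell, by 0.64, 1.38 and 0.21 on the log2 scale. Without sgEGR1 SCF replicate 3, SIK3 and these 4 genes still passed, with edgeR adjusted p from 0.00011 (PDK4) to 0.0330 (SIK3). FKBP5, TSC22D3 and KLF9, textbook targets of the receptor, gave 0.06 (SE 0.0437), -0.11 (SE 0.0932) and -0.10 (SE 0.0968) and did not pass. In replicate 1 against replicates 2 and 3, 5 of these 11 genes passed, all higher in replicate 1, against 26.6% of all genes in either direction, and PER1 is itself 1 of the 5 beside DUSP1, TSC22D3, SGK1 and FKBP5. Of the 10 tested genes of the CREB list, 7 passed in that comparison, with CRTC1, CRTC3 and SIK2 higher and ATF1, CREB1, CREM and SIK3 lower in replicate 1, and SIK2 was lost without sgEGR1 SCF replicate 3 (edgeR adjusted p = 0.0865). The other lists held such calls too. Among 4 tested genes of the positive arm ARNTL was higher and RORA lower in replicate 1. Among 6 other repressors and output factors TIMELESS was higher. Of 7 tested kinases and ubiquitin ligases of PER and CRY, 1 passed higher and 2 lower. The part of any of these lists in the PER1 values was not tested. No gene of these lists passed between guides or for the interaction in edgeR.

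**Figure D5:**
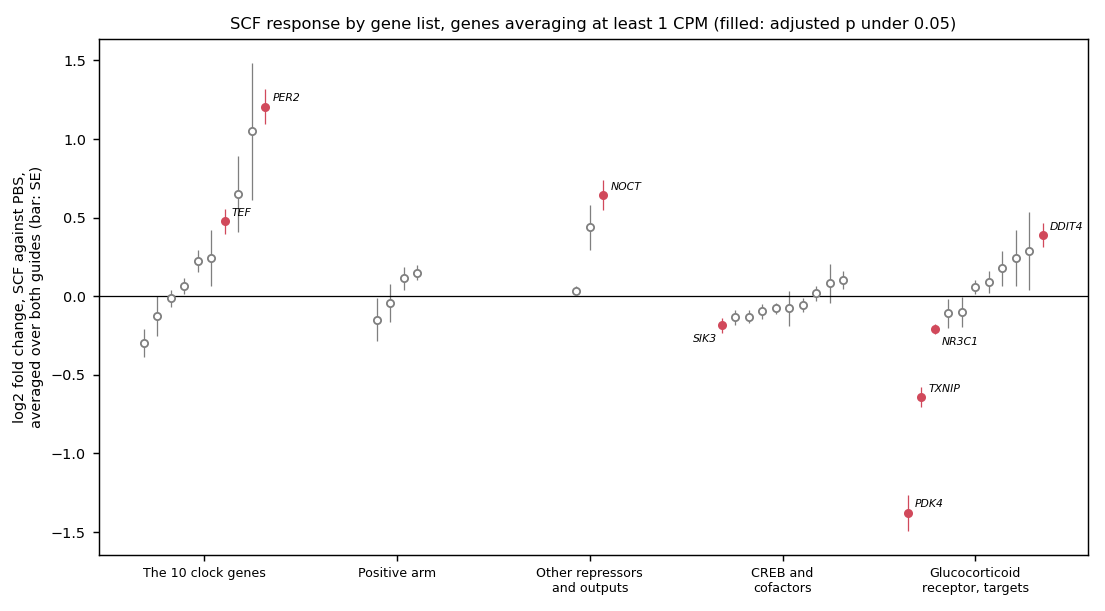
Log2 fold change of SCF against PBS averaged over both guides, with bars for the SE, for the 10 clock genes and for the genes of 4 related lists that averaged at least 1 CPM, each list sorted by value, with filled and named points where the edgeR adjusted p was under 0.05 and PER1 shown in 2 lists. PER2 (1.20) is the highest named point and PDK4 (-1.38) the lowest.

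Across the 12 libraries, the genes whose log2 CPM followed each clock gene most closely were sought among 11177 genes with at least 2 CPM on average. The points share treatment, guide and replicate, so these correlations describe the libraries and carry no test. PER2 lay closest to TWNK (Pearson r = 0.982), MYC (r = 0.978) and CHAMP1 (r = 0.974). TEF lay closest to SZRD1 (r = 0.952), TOE1 (r = 0.948) and FOSL1 (r = 0.947). PER1 lay closest to EPPK1 (r = 0.994), CTTN (r = 0.982) and EIF3B (r = 0.979), and BHLHE40 to PATZ1 (r = 0.959), ASF1B (r = 0.957) and SLC20A1 (r = 0.955). CRY2 lay closest to ZHX1 (r = 0.969), NR1D2 to RETREG3 (r = 0.934), PER3 to POLR2A (r = 0.940), NR1D1 to DCTD (r = 0.901), CRY1 to NIT2 (r = 0.885) and DBP to ALDOA (r = 0.842). None of the 3 closest genes of any clock gene was itself 1 of the 10. In bulk RNA a lower level can come from fewer expressing cells or from less RNA per cell, and these data cannot tell them apart.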

How the data were processed

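RNA-seq was made from 12 libraries of HUDEP-2 cells in 4 groups of 3, assigned from the labels. HISAT was the aligner and hg38 the build, and StringTie gave the estimated counts per gene that the authors deposited, not scaled for depth or length. The submitters' processing notes also name SAMtools and bcl2fastq. The study's methods call the libraries strand-specific, but labels and methods name different library kits. The annotation release and the use of strand in counting are not given in the sources used here. The table's columns name sgEGR1 by a code, matched to it as the labels' sole construct besides the control. All deposited values were whole, so rounding changed none, and the table held 0 sample columns beyond the 12. Intervals from counting would cover counting error only, and no floor was needed because all 10 genes had counts in every library.

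Genes were kept by filterByExpr in edgeR 4.0.16 (R 4.3.3), keeping 99.9% or more of every library's counts, and libraries were scaled by TMM. The quasi-likelihood test used all 12 libraries with 1 coefficient per group, and calls needed a Benjamini-Hochberg adjusted p under 0.05 over all 15492 genes. Alternatives were DESeq2 1.42.0, relative log expression size factors, no filter, the replicate number as a block, a replicate 1 term, replicates 2 and 3 only, and each library left out. The replicate 1 term and the comparison of replicate 1 with the others were set with replicate 1 already known to stand apart in these data. A replicate 1 term without sgEGR1 SCF replicate 3 was added after seeing the data. Same-numbered libraries deviated together between guides (residual correlations 0.232, 0.103 and 0.119 after PBS and 0.269, 0.102 and 0.126 after SCF, the labels giving numbers only), and blocking on the number changed no call of the 10 genes there. The code was tested on simulated counts with 200 changed genes. Exon lengths, overlaps and positions came from GENCODE v44, and promoters from RefSeq (GRCh38.p14), where all 10 genes matched. All 10 genes were described, with the 3 nearest genes of each by correlation and called genes of each list. The members and the lists were chosen with earlier results of these data known. Some genes of these lists are not reported here.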

Additional observations from a re-analysis of the deposited data

How the results depend on the processing

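PER2 in the 3 SCF comparisons and TEF in the averaged one passed under every alternative run, and no clock gene passed between guides or for the interaction under any. The number of clock genes that passed for SCF in sgControl cells (1) was 2 with DESeq2, 3 with the replicate block, 4 with a replicate 1 term and 3 with that term without sgEGR1 SCF replicate 3. In sgEGR1 cells (2) it was 1 without the filter or from replicates 2 and 3 only, 3 with the replicate block, 4 with the replicate 1 term, 2 with that term without sgEGR1 SCF replicate 3, and 1 to 2 with 1 library left out. In the averaged comparison (2) it was 3 with DESeq2 and 6 with the replicate block or the replicate 1 term. It was 5 from replicates 2 and 3 only, or with the term without sgEGR1 SCF replicate 3. Without sgEGR1 PBS replicate 1, BHLHE40 passed as well. The share of all genes that passed moved with the setting too. In sgControl cells it was 2.89% in the main edgeR fit, 4.9% with DESeq2 and 8.32% with the replicate 1 term. In sgEGR1 cells it was 2.59% in the main fit, 4.45% from replicates 2 and 3 only and 8.56% with the term. Averaged, it was 9.03% in the main fit, 11.6% with DESeq2, 11.3% from replicates 2 and 3 only and 18.5% with the term. Shares for the other settings are not given. Residual correlations of same-numbered PBS and SCF libraries were 0.272, 0.00766 and 0.108 in sgControl cells (replicates 1, 2 and 3). In sgEGR1 cells they were 0.230, 0.0749 and 0.0620. Same-numbered PBS and SCF libraries thus did not all deviate together, so for SCF the block shows only that the call depends on it. With 1 library left out, values near 0 changed sign. In sgControl cells PER3 ran from -0.030 to 0.11 and CRY1 from -0.062 to 0.10. In sgEGR1 cells DBP ran from -0.26 to 0.074, and it was 0.027 with the replicate 1 term without sgEGR1 SCF replicate 3. Averaged, PER3 ran from -0.048 to 0.024. Between replicates PER2 ran from -0.20 to 0.074 and CRY1 from -0.028 to 0.039. Between guides PER2 ran from -0.084 to 0.11 after PBS and -0.23 to 0.035 after SCF, where replicates 2 and 3 only gave 0.091. The response difference ran from -0.23 to 0.036 for PER2 and -1.22 to 0.28 for BHLHE40. The causes were not tested. Counts of 13 to 108 for BHLHE40 and 15 to 55 for NR1D1 limit both genes.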
